A study of Mus musculus with 6 samples.

Results

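The genes of the brain's hyaluronan matrix were examined here: the lecticans Bcan (brevican), Ncan (neurocan), Vcan (versican) and Acan (aggrecan), the link proteins Hapln1, Hapln2 and Hapln4, the tenascins Tnr and Tnc, and Ptprz1. The members were all probes of an Illumina mouse bead array whose platform gene symbol was one of these 10 genes, compared between 2 genotypes of mouse brain tumour. The annotation named 17 such probes of 9 genes, among 25697 probes on the array. No probe was named Ptprz1, so that gene was not analysed here. A probe counted as detected on an array where its detection p-value was below 0.05. Of the 17 probes, 13 were detected on 3 or more of the 6 arrays and were tested, and each of the 9 genes kept at least 1 probe.

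The 3 tumours of each group grew in SCID mice from transplanted cells and were taken when neurological symptoms appeared. One group had the genotype Olig2cre/+;p53fl/fl;hEGFRvIII, with cre at 1 Olig2 allele, and the other Olig2cre/cre;p53fl/fl;hEGFRvIII, with cre at both, so floxed p53 and the human EGFRvIII gene, a constantly active form of the EGF receptor, were common to all 6. Per the labels the tumours numbered 1, 2 and 3 had ages of 45, 50 and 47 days in both groups, with the caveat that numbers 1 and 3 are exchanged between the authors' pair of tables. Separate cell lines, clones, pooling of animals and the promoter behind hEGFRvIII are not given in the labels, and the spread that enters each p-value is that among these 6 tumours. SCID mice lack mature T and B cells but keep their other brain and blood cells, and the tumours were measured in bulk: fewer cells of a type and less RNA per cell cannot be told apart.

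Lecticans are chondroitin sulfate proteoglycans that hold hyaluronan at one end and tenascins at the other, and link proteins clamp the lectican onto the hyaluronan chain. Together they fill the spaces between brain cells and build perineuronal nets around neurons and the matrix at nodes of Ranvier. Ptprz1 is a receptor phosphatase of glial precursors whose secreted form binds tenascins and contactin. Brevican and tenascin-C are known as abundant matrix proteins of glioma.

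Signals are given as log2 intensities after background correction and quantile normalization, on which the lowest detected signal of an array lay between 5.23 and 5.51. The share of detected probes per array was 53.4% to 57.6%. Over the 14606 tested probes, Olig2cre/cre replicate 3 was about as near to the Olig2cre/+ tumours as to its own group. It correlated at r = 0.886 and 0.928 with Olig2cre/cre replicates 1 and 2 and at 0.914 to 0.941 with the Olig2cre/+ tumours. Olig2cre/cre replicate 1 was the farthest from the Olig2cre/+ tumours (0.766 to 0.837) and correlated at 0.912 with replicate 2 of its group. The single Olig2 probe differed by -1.34 ± 0.30 (SE, n = 3 per group, limma adjusted p = 0.0555) and was detected on all 6 arrays. That probe did not pass the threshold, although no Olig2cre/cre tumour reached the level of an Olig2cre/+ tumour, and whether it reads the part of the gene replaced by cre is not known here.

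None of the 13 probes passed the threshold of an adjusted p under 0.05 (limma, Benjamini-Hochberg over 14606 probes), where 4.42% of all tested probes did (2.65% higher and 1.77% lower in Olig2cre/cre). At an unadjusted p under 0.05 there were 5 of the 13, beside 25.3% of all tested probes. The groups did not overlap for 4 of the 13, beside 31.2% of all tested probes. Both shares include 3 probes, 1 of Tnr and 2 of Tnc, that passed the detection filter through the Olig2cre/+ arrays alone. The first share also includes the tested Acan probe, which needed its Olig2cre/cre arrays to pass that filter. The mean was higher in Olig2cre/cre for 5 probes, of Bcan, Vcan, Acan and Hapln1, and lower for 8, of Ncan, Hapln2, Hapln4, Tnr and Tnc. The direction of each of the 13 was the same in all 12 or 13 other settings that tested it. Not all of these could have changed it. Changing the detection filter or adding the replicate number as a block leaves the difference itself unchanged. The authors' values repeat the setting with no background correction. The count depended on single tumours, as given beside those genes. Without Olig2cre/+ replicate 3, 1 of the 13 probes passed, beside 0.472% of all tested probes. Without Olig2cre/cre replicate 3, 2 of the 13 passed, beside 13.2% of all tested probes.

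**Figure D1:**
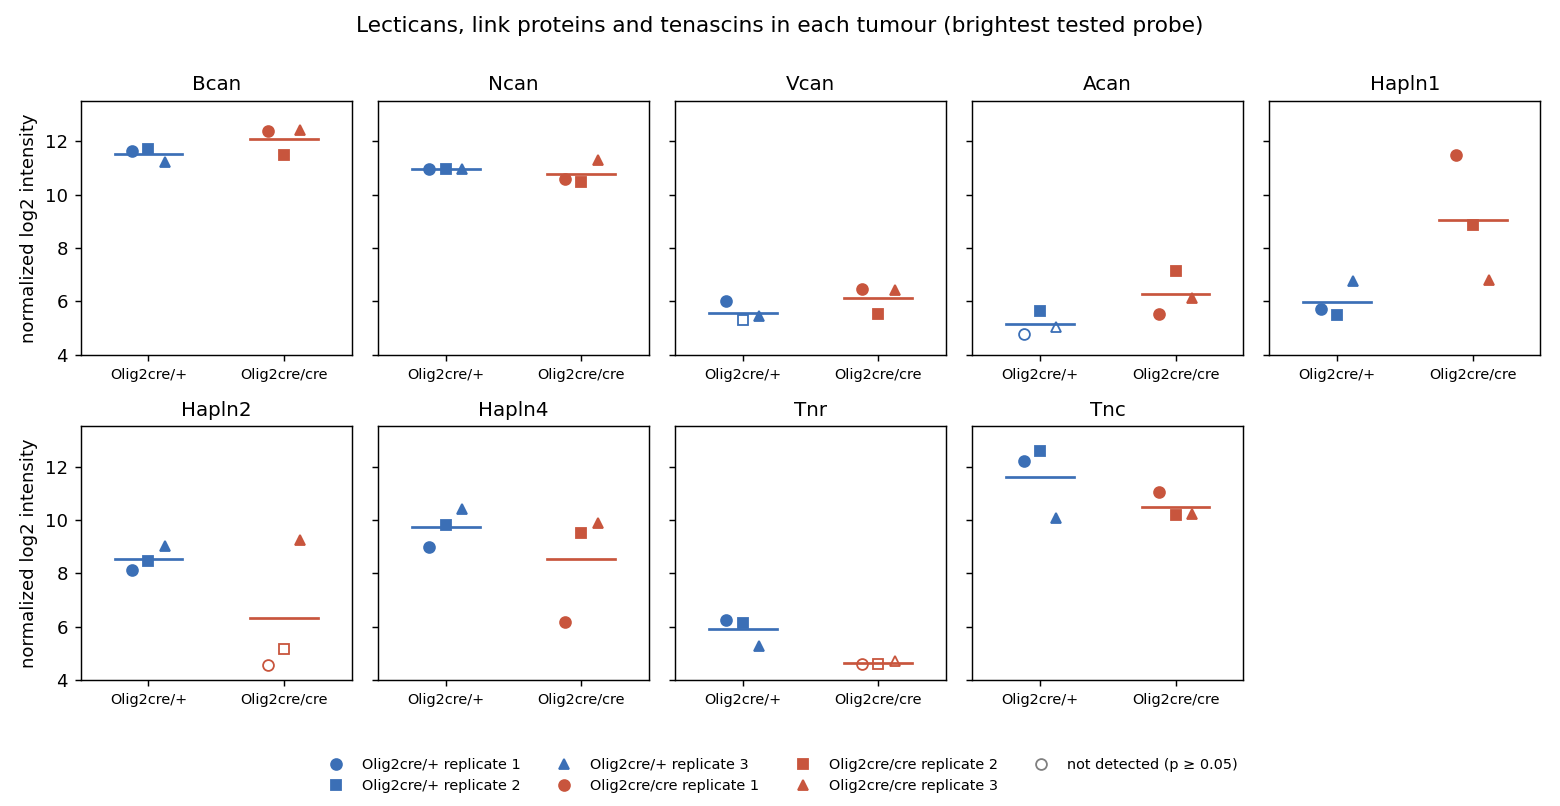
Normalized log2 intensity of the brightest tested probe of each gene in each tumour, with blue for Olig2cre/+, red for Olig2cre/cre, a line for the group mean, a marker shape for the replicate number and open markers where the detection p-value was 0.05 or more. Hapln1 and Hapln2 spread widely among the Olig2cre/cre tumours, from 6.80 to 11.48 and from 4.56 to 9.26, and Tnr was not detected in that group.

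Of the lectican probes, those of Bcan, Ncan and Vcan had 95% intervals of the difference that included 0, and the tested Acan probe had one that did not, with none past the adjusted threshold. Brevican, the lectican of glial cells and perisynaptic matrix, read 11.63, 11.71 and 11.23 in Olig2cre/+ tumours 1 to 3 and 12.37, 11.48 and 12.40 in Olig2cre/cre tumours 1 to 3 on probe ILMN_2670486. Tumours 1 and 3 of Olig2cre/cre were the highest and tumour 2 lay within the range of the Olig2cre/+ group. The difference was 0.56 ± 0.33 (SE, n = 3, limma adjusted p = 0.338), with a 95% interval of -0.21 to 1.33. On the other tested Bcan probe, ILMN_2636745, it was 0.47 ± 0.40 (SE, adjusted p = 0.514) with the groups overlapping, and a further Bcan probe was not detected on any array.

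Neurocan, a lectican made mainly by neurons and astrocytes, had the smallest SD of the 13 probes among the Olig2cre/+ tumours. Its probe ILMN_2993652 read 10.95, 10.97 and 10.95 in the Olig2cre/+ tumours, an SD of 0.01, and 10.59, 10.46 and 11.28 in the Olig2cre/cre tumours, an SD of 0.44. The Olig2cre/cre values lay on both sides of the Olig2cre/+ values. The Ncan difference was -0.18 ± 0.28 (SE, n = 3, adjusted p = 0.741), and its 95% interval of -0.84 to 0.48 did not reach a log2 change of 1 in either direction.

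Versican and aggrecan were read close to the detection limit. The Vcan probe ILMN_2865704, for a lectican of developing and vascular tissue, read 6.01, 5.29 and 5.45 in the Olig2cre/+ tumours, of which the second was not detected, and 6.45, 5.54 and 6.44 in the Olig2cre/cre tumours. Its difference was 0.56 ± 0.35 (SE, adjusted p = 0.368), or 0.18 with no background correction, and the groups overlapped. Aggrecan is the main proteoglycan of cartilage and of perineuronal nets. The Acan probe ILMN_2639818 was detected in 1 of 3 Olig2cre/+ tumours and in all Olig2cre/cre tumours, at 4.76, 5.63 and 5.04 and at 5.51, 7.15 and 6.12. It passed the detection filter through its Olig2cre/cre arrays, which favours a higher mean in that group. The measured difference was 1.12 ± 0.45 (SE, unadjusted p = 0.0432 and adjusted p = 0.183 in the limma fit, 95% interval 0.04 to 2.19), a 2.17-fold difference that became 1.79-fold when each undetected value was set to its array's lowest detected signal. It was 0.67 without Olig2cre/cre replicate 2 and 0.37 with no background correction. The other Acan probe, ILMN_2645654, was not detected in Olig2cre/+ and was detected in Olig2cre/cre tumours 2 and 3 (7.52 and 6.17). Tumour 2 was thus the highest on both Acan probes, and the second probe gave at least 1.74-fold more signal in Olig2cre/cre, with no test because it was detected on only 2 arrays.

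**Figure D2:**
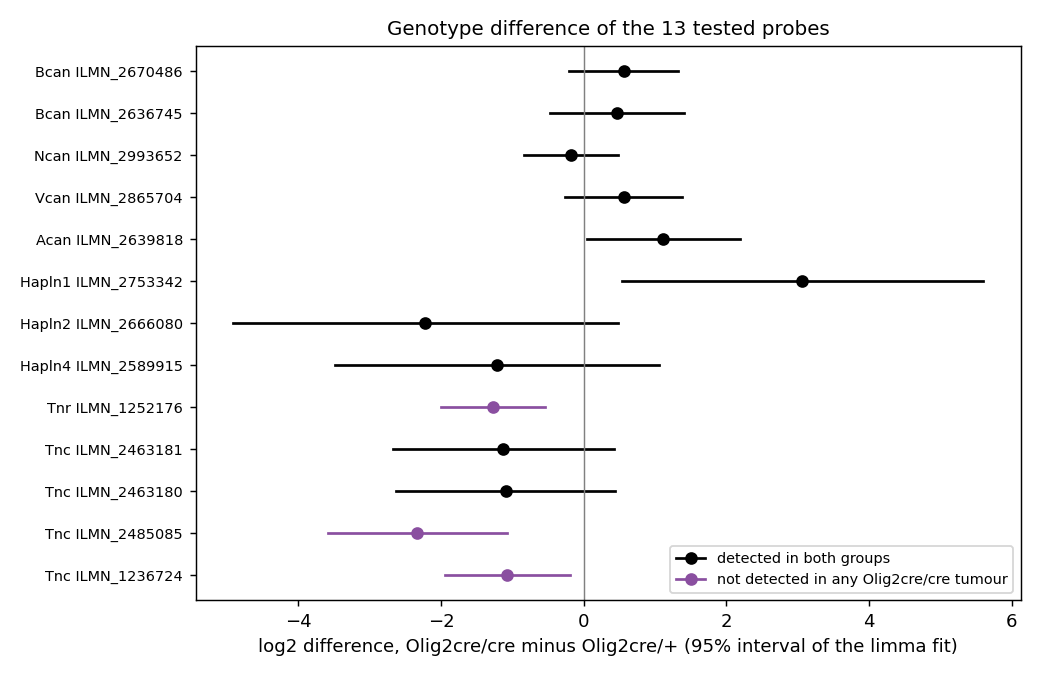
Log2 difference between the genotypes (Olig2cre/cre minus Olig2cre/+) for the 13 tested probes, each with the 95% interval of the limma fit, unadjusted for the number of probes. Probes in purple were not detected in any Olig2cre/cre tumour, so the size shown for them comes from values at background, and the widest intervals belong to the 3 link proteins.

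Among the Olig2cre/cre tumours the link protein probes had SDs of 2.05 to 2.56 and the tested lectican probes SDs of 0.44 to 0.83. Hapln1, the link protein of cartilage and of perineuronal nets, read 5.70, 5.50 and 6.75 in Olig2cre/+ and 11.48, 8.86 and 6.80 in Olig2cre/cre (probe ILMN_2753342). On the scale of the deposited signals these were 179.1, 197.2 and 237.4 against 2828, 672.9 and 253.2. Tumours 1 and 2 of Olig2cre/cre stood far above all others, while tumour 3 lay just above the highest Olig2cre/+ tumour. Olig2cre/+ tumours 1 and 2 lay near the lowest detected signals of their arrays (5.40 and 5.37), so the fold rests partly on values near that limit. The mean was 8.35-fold higher in Olig2cre/cre, a difference of 3.06 ± 1.07 (SE, n = 3, limma adjusted p = 0.135, 95% interval 0.53 to 5.59). Without Olig2cre/cre replicate 3 it was 4.19 and passed (adjusted p = 0.0208), in a setting where 13.2% of all tested probes passed. It was 1.85 without Olig2cre/cre replicate 1 (adjusted p = 0.178) and 1.91 with no background correction.

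Hapln2, the link protein that oligodendrocytes lay down at nodes of Ranvier, went the other way in the same tumours. It read 8.12, 8.48 and 9.04 in Olig2cre/+ and 4.56, 5.16 and 9.26 in Olig2cre/cre (probe ILMN_2666080). It was not detected in Olig2cre/cre tumours 1 and 2, whereas tumour 3 had the highest value of all 6. The measured difference was -2.22 ± 1.14 (SE, n = 3, adjusted p = 0.280), or 3.59-fold lower when undetected values were set to that floor. Without Olig2cre/cre replicate 3 the Hapln2 difference was -3.68 and passed (adjusted p = 0.00459), as did 13.2% of all tested probes. It was -1.33 without replicate 1 of that group (adjusted p = 0.523) and -0.95 with no background correction.

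Hapln4, a link protein of neurons found at inhibitory synapses, read 8.98, 9.81 and 10.43 in Olig2cre/+ and 6.17, 9.50 and 9.90 in Olig2cre/cre (probe ILMN_2589915). Only Olig2cre/cre tumour 1 lay below the Olig2cre/+ range. The difference was -1.22 ± 0.96 (SE, n = 3, adjusted p = 0.484), and without Olig2cre/cre replicate 1 it was -0.04 (adjusted p = 0.974).

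Each link protein gene lies beside a lectican gene in the mouse genome (GRCm38.p6), with no protein-coding gene in between: Hapln1 43.5 kb from Vcan on chromosome 13, Hapln2 18.4 kb from Bcan on chromosome 3 and Hapln4 2.22 kb from Ncan on chromosome 8. The log2 ratio of each link protein to its neighbour was therefore compared between genotypes by exact two-sided permutation over the 6 tumours, where the smallest possible p is 0.1. The Hapln1 to Vcan ratio was -0.31, 0.21 and 1.30 in Olig2cre/+ and 5.03, 3.33 and 0.36 in Olig2cre/cre, a difference of 2.5 (exact p = 0.2, adjusted over the 3 pairs p = 0.45). The Hapln2 to Bcan ratio was -3.51, -3.24 and -2.19 against -7.81, -6.32 and -3.14, a difference of -2.78 (exact p = 0.3, adjusted p = 0.45). The Hapln4 to Ncan ratio was -1.97, -1.16 and -0.52 against -4.42, -0.96 and -1.38, a difference of -1.04 (exact p = 0.6, adjusted p = 0.6). In each pair Olig2cre/cre tumour 1 had the ratio farthest from the Olig2cre/+ group. With 3 tumours a group this test could not have passed 0.05 for any pair, so it does not settle whether the ratios differ. Hapln2 in Olig2cre/cre tumours 1 and 2 and Vcan in Olig2cre/+ tumour 2 were not detected, so their ratios rest on background values. With undetected values set to each array's lowest detected signal, an alternative chosen after seeing the data, the differences were 2.53 for Hapln1 to Vcan and -2.40 for Hapln2 to Bcan. The sign of the Hapln4 to Ncan difference turned to 0.0464 without that tumour.

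The 300 bases around the start of Hapln1 and Hapln2 (RefSeq, GRCm38.p6, written along the gene's strand, chr13:89540386-89540685 on the plus strand and chr3:88027462-88027761 on the minus strand) are shown because these had the largest differences among the 3 link proteins, of opposite sign. Capitals mark CANNTG, the E box that basic helix-loop-helix factors such as Olig2 can bind, which reads the same on both strands.
Hapln1: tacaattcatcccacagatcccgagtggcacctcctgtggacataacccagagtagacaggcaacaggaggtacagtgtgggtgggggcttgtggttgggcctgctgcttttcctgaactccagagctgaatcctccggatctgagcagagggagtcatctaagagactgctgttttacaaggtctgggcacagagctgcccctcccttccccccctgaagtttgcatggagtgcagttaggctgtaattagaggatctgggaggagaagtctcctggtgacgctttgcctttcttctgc
Hapln2: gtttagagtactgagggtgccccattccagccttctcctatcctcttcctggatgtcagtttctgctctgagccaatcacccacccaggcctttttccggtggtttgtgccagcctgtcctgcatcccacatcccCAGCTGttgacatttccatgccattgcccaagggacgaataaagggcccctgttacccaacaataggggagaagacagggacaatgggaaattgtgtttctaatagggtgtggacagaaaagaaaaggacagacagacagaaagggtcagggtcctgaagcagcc
The Hapln2 window held 1 match, CAGCTG, and the Hapln1 window none. Of 32851 promoter windows of this length in the same table, 72.3% held CANNTG and 16.3% held CAGCTG, which is one of its forms.

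Marker lists of neurons, interneurons and oligodendrocytes were lower in the same Olig2cre/cre tumours in which Hapln2 was not detected and Hapln1 was highest, and their part in these results was not tested. Relative to the Olig2cre/+ mean, the neuron list (11 of 15 genes tested) stood at -0.87, 0.00 and 0.87 in Olig2cre/+ tumours 1 to 3 and at -4.69, -2.36 and -0.95 in Olig2cre/cre tumours 1 to 3, and all 11 genes had a lower mean in Olig2cre/cre with none past the threshold. Its mean level was 10.59 to 12.32 in Olig2cre/+ and 6.77 to 10.50 in Olig2cre/cre, and the synaptic vesicle gene Syt1 was not detected in Olig2cre/cre tumour 1. The oligodendrocyte list (12 of 15 genes tested) stood at -3.74, -3.26 and -0.90 in the Olig2cre/cre tumours, with mean levels of 7.67 to 10.51 against 11.34 to 11.46, and 3 of its genes fell (Opalin, Enpp6 and Cnp, of myelinating cells) and 1 rose (Trf, transferrin), beside 1.95% of 9998 genes that fell and 2.83% that rose. The interneuron list, drawn up for net-bearing cells, had 5 of 8 genes tested: Pvalb, Gad1, Slc32a1, Sst and Kcnc1. It stood at -4.14, -1.61 and 0.66 in the Olig2cre/cre tumours. Pvalb read 4.75, 8.45 and 14.09 there, against 11.65, 11.62 and 12.70 in Olig2cre/+. Olig2cre/cre tumour 3, where Hapln2 and Hapln4 lay within or above the Olig2cre/+ range, was thus also the Olig2cre/cre tumour with the most signal of all 3 lists. In the interneuron list 1 gene rose, Kcnc1, a potassium channel subunit, at a difference of 1.76 (adjusted p = 0.0173), and none fell. The other Kcnc1 probe did not pass (adjusted p = 0.556).

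**Figure D3:**
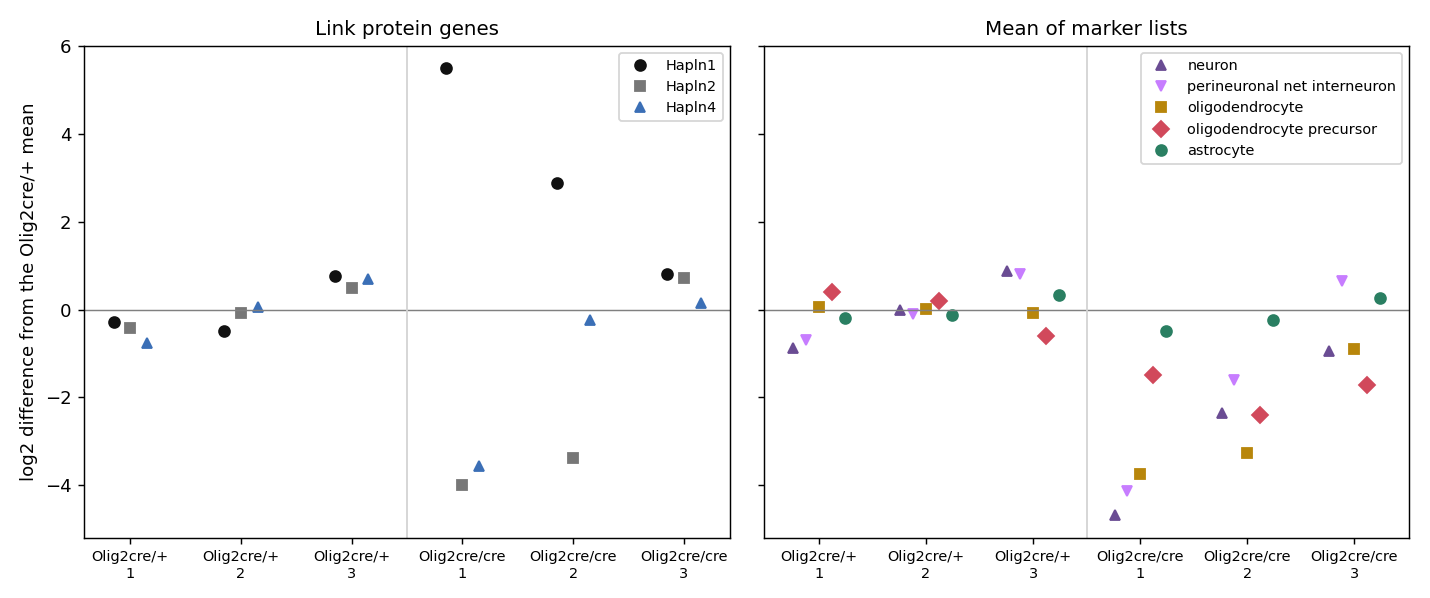
Left, log2 intensity of the link protein genes in each tumour relative to the Olig2cre/+ mean; right, the mean of 5 marker lists on the same scale. Hapln2 was low in Olig2cre/cre tumours 1 and 2, where the oligodendrocyte and neuron lists were lowest, Hapln4 was low in tumour 1 alone, Hapln1 was high in tumours 1 and 2, and the astrocyte list stayed between -0.49 and 0.32.

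Astrocyte genes, of which 12 of 14 were tested, had a median difference of -0.06 and none past the threshold. That median covers 6 genes with a higher and 6 with a lower mean in Olig2cre/cre, with the largest differences for Gfap (1.625), Clu (-1.44) and Aqp4 (-1.315). Lists for other cells of the tumour were higher in Olig2cre/cre, with medians of 0.74 for microglia or macrophages (2 of 11 rose), 1.23 for endothelium (4 of 11 rose) and 1.21 for pericytes or fibroblasts (1 of 9 rose), and none of their genes fell past the threshold. The mean was nevertheless lower in Olig2cre/cre for 3 endothelial and 3 pericyte or fibroblast genes, and for none of microglia or macrophages. Over all 9998 genes 2.83% rose. The microglia or macrophage list, in which Lyz2 and Ms4a7 rose, stood highest in Olig2cre/cre tumour 1 (2.08, against 0.53 and 0.67 in tumours 2 and 3). The median difference over all 14606 tested probes was 0.02. Cspg4 stands in both the pericyte and the oligodendrocyte precursor list.

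Tenascin genes had a lower mean in Olig2cre/cre in all 5 tested probes, 4 of them of Tnc, and none passed the threshold. The Tnr probe and the dimmer Tnc probes, 3 in all, passed the detection filter through the Olig2cre/+ arrays alone, which favours that direction. Tenascin-R, which crosslinks lecticans and is made by oligodendrocytes and some neurons, was detected in every Olig2cre/+ tumour, at 6.27, 6.15 and 5.30, and in no Olig2cre/cre tumour, at 4.61, 4.59 and 4.72 (probe ILMN_1252176). The groups did not overlap, but the Olig2cre/+ values were themselves near the detection limit. Tnr was at least 1.42-fold higher in Olig2cre/+, with a fitted difference of -1.27 ± 0.31 (SE, n = 3, limma adjusted p = 0.0663) and -0.41 with no background correction. Leaving out single tumours gave -1.57 to -1.08, none of which passed.

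Tenascin-C, a matrix protein of precursor zones, wounds and glioma, had 6 probes. The brighter pair, ILMN_2463181 and ILMN_2463180, read 12.20, 12.58 and 10.07 and then 11.97, 12.20 and 9.74 in the Olig2cre/+ tumours. In the Olig2cre/cre tumours they read 11.06, 10.18 and 10.23 and then 10.73, 9.94 and 9.96. Olig2cre/+ tumours 1 and 2 were the highest on both, and Olig2cre/+ tumour 3 the lowest, so the groups overlapped. Their differences were -1.13 ± 0.66 and -1.10 ± 0.65 (SE, adjusted p = 0.339 and 0.351), and without Olig2cre/+ replicate 3 they were -1.90 and -1.88 (adjusted p = 0.0971 and 0.0850).

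The dimmer Tnc probes were detected in Olig2cre/+ alone, and they passed the detection filter through that group, which favours a difference. ILMN_2485085 read 7.67, 8.14 and 6.00 in Olig2cre/+ and 5.14, 4.91 and 4.78 in Olig2cre/cre, where it was not detected. It was at least 3.66-fold higher in Olig2cre/+ and had the smallest p of the 13 probes, with a fitted difference of -2.33 ± 0.53 (SE, n = 3, limma adjusted p = 0.0573). It passed without Olig2cre/+ replicate 3 (-2.96, adjusted p = 0.0332) and not without any of the other 5 tumours (-2.43 to -1.90), and it was -0.91 with no background correction. ILMN_1236724 read 5.99, 6.71 and 5.41 against 4.67, 5.23 and 4.99, was at least 1.55-fold higher in Olig2cre/+, and had an adjusted p of 0.132. The other Tnc probes, ILMN_1251943 and ILMN_2454497, were not detected on any array. The same Olig2cre/+ tumour, number 3, was the lowest of its group on every tested Tnc probe. The oligodendrocyte precursor list stood at 0.41, 0.19 and -0.60 in Olig2cre/+ and -1.48, -2.40 and -1.71 in Olig2cre/cre relative to the Olig2cre/+ mean. Olig2cre/+ tumour 3 was thus the lowest of its group there too, but above every Olig2cre/cre tumour, unlike on the bright Tnc probes. In that list 3 of 11 genes fell and none rose (1.95% of all genes fell), and its part in the Tnc result was not tested. That list's mean level was 9.26 to 10.26 in Olig2cre/+ and 7.45 to 8.37 in Olig2cre/cre.

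**Figure D4:**
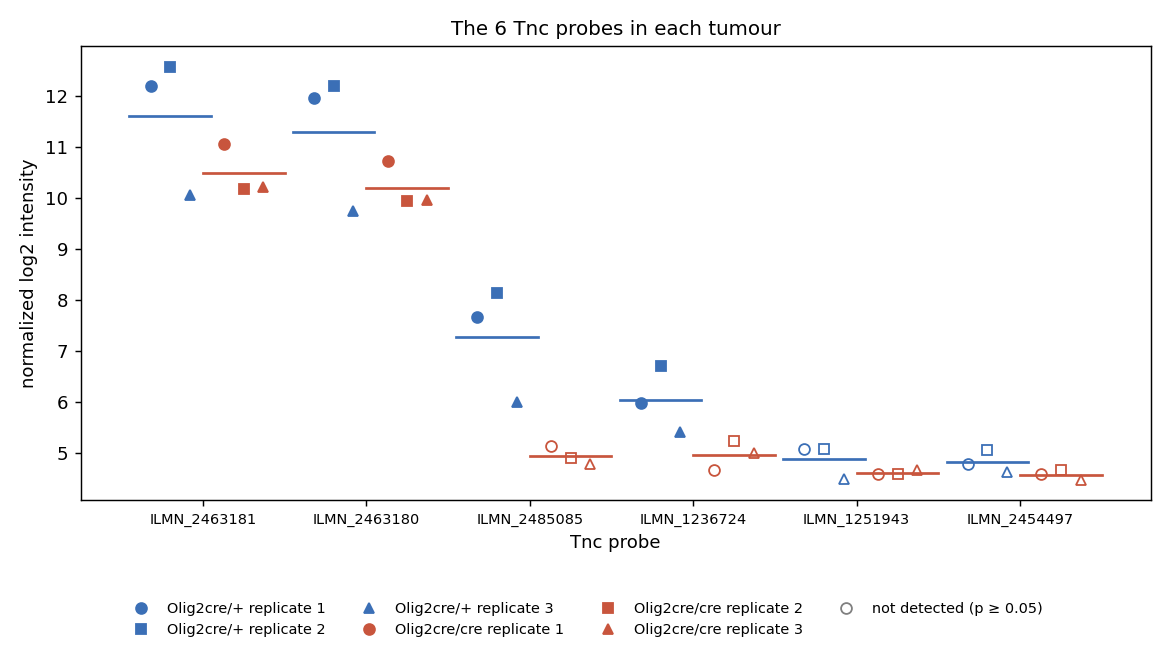
Normalized log2 intensity of the 6 Tnc probes in each tumour, colours, shapes and open markers as in the plot of all genes by tumour. On the 4 probes with detected signal, Olig2cre/+ tumours 1 and 2 were above every Olig2cre/cre tumour, and Olig2cre/+ tumour 3 was below them on the 2 bright probes and above them on the 2 dim ones.

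The starts of Tnr (chr1:159523519-159523818, plus strand) and of Tnc (chr4:64046887-64047186, minus strand, the first of 2 windows listed for the gene) are shown in the same way because both tenascins were lower in the mean of Olig2cre/cre.
Tnr: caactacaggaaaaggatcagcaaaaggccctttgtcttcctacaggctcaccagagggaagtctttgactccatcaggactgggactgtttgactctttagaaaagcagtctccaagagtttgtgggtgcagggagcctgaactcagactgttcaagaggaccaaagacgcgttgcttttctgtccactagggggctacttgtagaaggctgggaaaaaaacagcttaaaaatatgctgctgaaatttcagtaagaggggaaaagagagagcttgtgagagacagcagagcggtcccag
Tnc: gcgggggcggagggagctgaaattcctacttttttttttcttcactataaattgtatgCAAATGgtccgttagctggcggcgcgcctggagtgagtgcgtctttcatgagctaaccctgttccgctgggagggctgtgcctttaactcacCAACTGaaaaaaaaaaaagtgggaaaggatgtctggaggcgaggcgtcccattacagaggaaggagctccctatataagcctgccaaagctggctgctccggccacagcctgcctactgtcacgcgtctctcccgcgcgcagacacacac
The Tnr window held no CANNTG and the Tnc window 2, CAAATG and CAACTG in the order of the gene's strand, and neither window held CAGCTG or CATCTG on either strand. CATCTG, or CAGATG on the other strand, was present in 17.2% of all windows. No match says only that these letters are not in the window.

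Genes that build, cut or bind this matrix were read from 5 lists of 83 genes in all, of which 57 were tested. Among them 7 of 57 passed (5 rose and 2 fell), beside 4.78% of all 9998 genes (2.83% rising and 1.95% falling), and the median difference of the 57 was 0.26. Of 9 tested proteases that cut lecticans or other matrix and their inhibitor, 2 rose, none fell and 7 did not pass, with a median of 1.22. Among the 7 was Timp3, the inhibitor, named here after its values were seen, whose brighter probe missed the threshold (1.39 ± 0.31, SE, limma adjusted p = 0.0549) and whose dimmer probe, detected in 1 of 3 Olig2cre/+ tumours, passed (1.92, adjusted p = 0.0291). Mmp14, the membrane-bound metalloproteinase that activates Mmp2, read 10.19, 9.51 and 9.45 in Olig2cre/+ and 12.84, 12.11 and 11.98 in Olig2cre/cre, a 6.02-fold rise (limma adjusted p = 0.0172). Mmp2, a gelatinase, read 7.95, 8.03 and 7.43 against 12.03, 12.78 and 9.80, a 13.3-fold rise (adjusted p = 0.0404), and missed the threshold with no background correction (adjusted p = 0.0612). Every Olig2cre/cre tumour was above every Olig2cre/+ tumour for both. Adamts4 and Adamts5, the aggrecanases that cleave brevican and aggrecan, did not pass.

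Of 13 tested genes of chondroitin sulfate chain synthesis, 2 rose, none fell and 11 did not pass, with a median of 0.35. Chsy1, a chondroitin synthase that extends the chain, read 10.85, 10.94 and 10.10 in Olig2cre/+ and 13.07, 12.38 and 12.59 in Olig2cre/cre, a 4.13-fold rise (adjusted p = 0.0275), and a further Chsy1 probe also passed (adjusted p = 0.0408). Fam20b, the kinase that marks the linkage sugar on which chains are started, rose 3.07-fold (adjusted p = 0.0265). Of 17 tested partners and receptors, 1 rose, 1 fell and 15 did not pass, with a median of 0.34. Ptn, the growth factor pleiotrophin that binds Ptprz1, read 12.90 ± 0.11 in Olig2cre/+ and 14.23 ± 0.18 in Olig2cre/cre (mean ± SD, n = 3, groups not overlapping), a 2.51-fold rise (adjusted p = 0.0302). Cntn1, the cell adhesion protein contactin that binds tenascins and Ptprz1, fell 4.10-fold (adjusted p = 0.0467), from 12.80, 12.73 and 12.60 to 10.49, 9.94 and 11.59, and missed the threshold with no background correction (adjusted p = 0.0522).

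Of 12 other tested tenascin, link protein and neural proteoglycan genes, 1 fell, none rose and 11 did not pass, with a median of -0.54. The gene that fell was Tmeff2, a transmembrane proteoglycan of neurons, at 2.75-fold as measured (adjusted p = 0.0424) and 2.29-fold with undetected values set to the lowest detected signal, detected in 1 of 3 Olig2cre/cre tumours, a call lost when the background was left in (-0.48, adjusted p = 0.0984). Of 6 tested hyaluronan genes none passed, with a median of 0.98. The smallest p-values there were those of the hyaluronidases Hyal1 (1.46 ± 0.42, SE, adjusted p = 0.0906) and Cemip2 (1.32 ± 0.38, SE, adjusted p = 0.0912). The calls depended on single tumours, and so, for Mmp2 and Cntn1, did the sizes. Over the settings that each left out 1 tumour, the difference was 2.32 to 2.83 for Mmp14 and 1.78 to 2.20 for Chsy1. It was 1.45 to 1.72 for Fam20b, 1.26 to 1.43 for Ptn and -1.674 to -1.315 for Tmeff2. The widest ranges were those of Mmp2 (3.114 to 4.603) and Cntn1 (-2.494 to -1.669), and each called gene kept its direction. Yet 0 of the 57 genes passed without any one Olig2cre/+ tumour or without Olig2cre/cre replicate 2, 2 passed without Olig2cre/cre replicate 1, and 15 passed without Olig2cre/cre replicate 3. Over all probes 10, 9 and 69 passed without Olig2cre/+ replicates 1, 2 and 3, against 645 with all 6 tumours. Without Olig2cre/cre replicates 1, 2 and 3 there were 305, 116 and 1922, the last 13.2% of all tested probes.

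**Figure D5:**
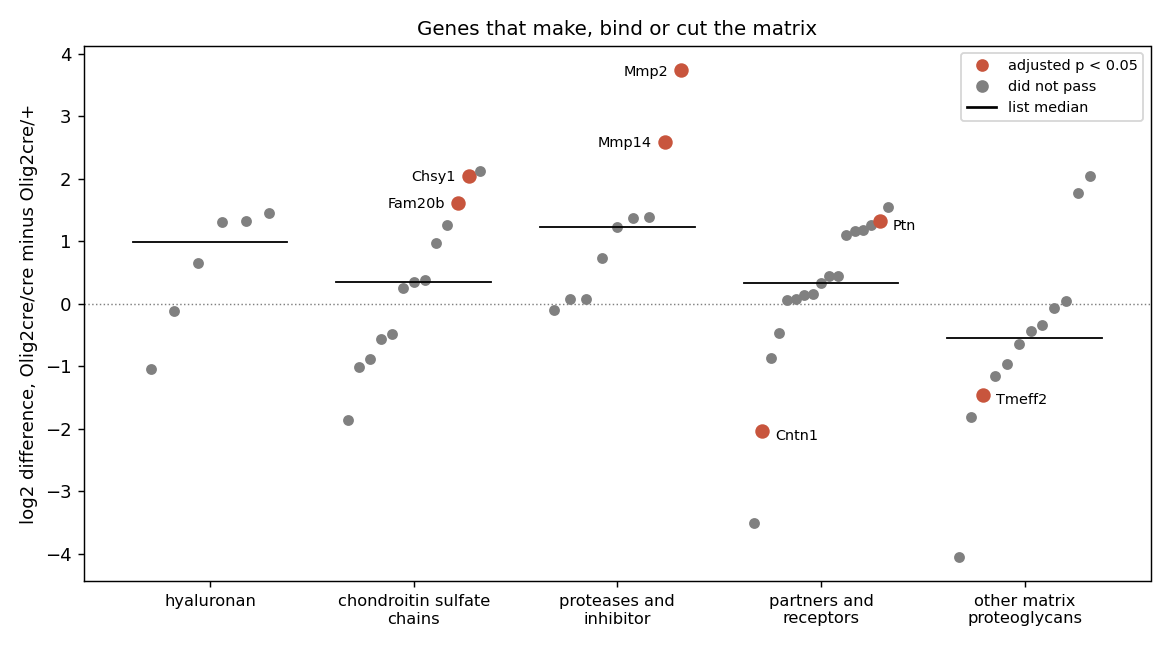
Log2 difference between the genotypes (Olig2cre/cre minus Olig2cre/+) for the 57 tested genes of the 5 matrix lists, sorted within each list, with the list median as a black line and the 7 genes past an adjusted p of 0.05 in red. Mmp2 and Mmp14 have the largest rises among the called genes and Cntn1 the largest fall.

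The genes whose profile over the 6 tumours was nearest to that of 2 member probes were found by the root-mean-square distance of log2 values centred on each gene's own mean, over 9997 other genes. Nearest to the Tnc probe ILMN_2485085 were Liph (distance 0.237), Prkcq (0.305) and Col19a1 (0.312). That probe was at background in all Olig2cre/cre tumours. Nearest to the Bcan probe ILMN_2670486 were Apaf1 (0.0967), Fgd4 (0.108) and Ganc (0.115). These genes were picked for their likeness, so their own genotype differences are not given as a test.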

How the data were processed

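Gene expression was measured on 6 bead arrays, 1 per tumour, from 3 Olig2cre/+ and 3 Olig2cre/cre tumours. The file headers of the non-normalized table the authors deposited name, for every probe and array, a linear signal intensity and its detection p-value. The second table the authors deposited holds intensity values whose 6 columns share 1 distribution. Each column matched the quantile-normalized signals of 1 array of the same genotype within 0.1% at every probe, with numbers 1 and 3 exchanged in both groups. Tumour numbers here follow the non-normalized table. Per the labels' protocols RNA was cleaned on RNeasy columns and amplified as biotin-labelled cRNA. The scanner software is not given in the sources used here.

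Signals were corrected with normexp, with the negative control level estimated from the detection p-values and an offset of 16. Quantile normalization and log2 followed, all through neqc (limma 3.58.1 under R 4.3.3). The 14606 probes detected (p-value below 0.05) on 3 or more of 6 arrays were fitted with genotype as the only term by lmFit and eBayes, two-sided, with Benjamini-Hochberg adjustment over all of them. Differences are Olig2cre/cre minus Olig2cre/+. Fold bounds ("at least") set the brighter group's mean against, per array of the other group, the higher of the probe's own value and the lowest detected signal. The number of arrays limits the precision. Of 25697 probes, 23978 had 1 platform symbol and 1719 none, and 23962 were matched by gene identifier to GRCm38.p6, used for names and gene order. Every member probe was read, and in the lists a gene stood by its tested probe of highest mean. Named beside the members are up to 4 genes past the threshold per matrix list, or the 2 of smallest p where none passed, and the 3 genes nearest in profile to 2 member probes. The members and the matrix and marker lists were chosen with earlier results of these data known. The fit was tested on simulated data. Other settings tried were the background correction, cyclic loess, the authors' values, the detection filter, array weights, the replicate number as a block, the mean of a gene's probes, leaving out each tumour and, chosen after seeing the data, undetected values set to the lowest detected signal in the ratios.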

Additional observations from a re-analysis of the deposited data

How the results depend on the processing

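The 13 member probes kept their direction in every setting that tested them, although the detection filter and the replicate block could not change it. The count of member probes past the threshold was 0, but 4 with array weights (1 of Hapln1, 1 of Tnr and 2 of Tnc), 1 with the replicate block (Tnc, adjusted p = 0.0344), and 0 to 2 when single tumours were left out. The count over all probes was 645, but 411 without background correction, as with the authors' own values, which are the same by construction. It was 230 when undetected probes were kept in, 1860 under array weights, 1382 under the replicate block, and 9 to 1922 when single tumours were left out. The count of matrix list genes was 7, but 4 without background correction, likewise on the authors' own values, 3 when undetected probes were kept in, 13 under array weights, 12 under the replicate block, and 0 to 15 when single tumours were left out. Olig2 passed with array weights (-1.57, adjusted p = 0.0153), and ranged from -1.57 to -1.16 when single tumours were left out (adjusted p = 0.0423 to 0.218). The Hapln4 to Ncan ratio difference ranged from -1.69 to 0.0464, its sign turning without Olig2cre/cre replicate 1. The cause of these changes was not tested. Same-numbered tumours of the 2 genotypes deviated from their group means with correlations of 0.194, 0.0168 and 0.302, and tumours of unlike number with -0.297 to 0.101. Olig2cre/+ tumour 2 correlated more with Olig2cre/cre tumour 1 (0.0695) than with its own number. These few correlations do not settle whether the samples are paired. Same-numbered tumours share a number and a labelled age, and no shared litter, batch or day is stated. Differences of probes near the detection limit shrink without background correction, and with 3 tumours per group a shift must be large to pass.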

Other observations

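The fourth link protein gene, Hapln3, lies 1.93 kb from Acan on chromosome 7 (GRCm38.p6), and was chosen for this description after its values were seen. Hapln3 read 6.00, 5.87 and 6.14 in Olig2cre/+ tumours 1 to 3 and 7.42, 9.27 and 6.64 in Olig2cre/cre tumours 1 to 3, a difference of 1.78 ± 0.62 (SE, n = 3, limma adjusted p = 0.135). Olig2cre/cre tumour 2 was the highest of the 6 for Hapln3 and for both Acan probes. The other Ptprz1 ligand of this family, the growth factor midkine (Mdk), also chosen after its values were seen, read 8.83, 10.31 and 10.47 in Olig2cre/+ and 8.53, 12.01 and 12.84 in Olig2cre/cre. Its lowest and highest values both lay in the Olig2cre/cre group, and it did not pass (1.26 ± 1.09, SE, adjusted p = 0.523), whereas for its relative Ptn the groups did not overlap.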
